A study of Mus musculus with 12 samples.

Results

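The genes described here encode the nuclear subunits of the respiratory chain and of ATP synthase. They were taken by symbol: Nduf followed by a, b, c, s or v and a digit, any symbol starting with Uqcr, Cox4 to Cox8 or Atp5, and Sdha, Sdhb, Sdhc, Sdhd and Cycs, with symbols containing -ps left out. The rule found 98 genes, left out 8 and kept 90 of 55401 annotated genes, with 89 different symbols because Atp5o has 2 identifiers. By complex the members were 38 of complex I, 4 of complex II, 8 of complex III, 21 of complex IV, 18 of complex V and cytochrome c. Ndufa4 and Ndufa4l2 were placed in complex IV, where Ndufa4 is known to belong despite its name. The rule missed the subunits Ndufab1 and Cyc1, and the 8 genes left out included Ndufb1-ps, with 2446 counts. It took in 4 genes that the annotation calls processed pseudogenes (Ndufa11b, Ndufb4c, Ndufs6b and Cox6c2). Atp5s, also named Dmac2l, was counted in complex V by its symbol alone. The rule used only names, and no measured value.

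Complex I passes electrons from NADH, and complex II those from succinate, to ubiquinone; complex III hands them to cytochrome c and complex IV to oxygen. Complexes I, III and IV pump protons, and complex V, the ATP synthase, uses the gradient to make ATP. Most subunits are nuclear genes, while a few core subunits are encoded by mitochondrial DNA, so each complex except II needs transcripts of both genomes, and T cells raise their use of this chain when they form memory or regulatory cells.

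RNA-seq counts were measured in 12 bulk libraries, 4 groups of 3, of double negative T cells, which carry CD3 and neither CD4 nor CD8, from the liver of adult C57BL/6 mice. Live cells negative for 7-AAD and NK1.1 and positive for CD45 and CD3 were sorted by their T cell receptor, either TCRαβ or TCRγδ. Each population was measured without and with arachidonic acid (AA), a polyunsaturated fatty acid, given for 48 h after the sort. The groups were thus αβ without AA, αβ with AA, γδ without AA and γδ with AA, and the comparison asked which genes differ with AA in each population. The labels do not say whether the cells without AA were kept in culture as long. They also do not say whether replicates were separate animals or cultures, so the p-values describe how far these libraries scatter, which may be a technical spread.

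Library totals ran from 6036487 to 30548253 counts, with the lowest in αβ with AA, at 8988771, 17021782 and 6036487. In 2 libraries the TCR δ constant gene Trdc went against the label. Per count of CD3 genes, αβ without AA had 0.0178, 0.0243 and, in the library labelled replicate 3, 0.354. For γδ without AA the values were 0.361, 0.427 and, again in the one labelled replicate 3, 0.0292. Trdc per CD3 was 0.131 to 0.358 in the αβ libraries with AA and 0.230 to 0.518 in the γδ libraries with AA, so those groups overlapped. Summed T cell markers, 9 of 9 detected, were 2137 to 3042 CPM (counts scaled to library size) in αβ without AA, 325 to 1109 with AA, 2593 to 3230 in γδ without AA and 2265 to 3597 with AA. Macrophage markers, 6 of 8 with a mean above 1 CPM, summed to 1902 to 25651, 5707 to 13007, 3850 to 39514 and 8267 to 23338 CPM in the same order. B cell markers summed to 1431 to 8868, 1910 to 8582, 977 to 5722 and 539 to 1777 CPM. In bulk RNA, fewer cells of a type and less RNA per cell cannot be told apart.

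The genes the results turn on are shown with the DNA around their start, from 250 bases before to 50 after it, taken from RefSeq (GRCm38.p6). Atp5b encodes the catalytic β subunit of ATP synthase and Uqcrc1 a core protein of complex III, which had the smallest p-values with AA in αβ cells. Ndufs4, an accessory subunit of complex I, had the smallest in γδ cells, and Uqcr11, the smallest subunit of complex III, had the largest ratio of highest to lowest library among the 72 tested members detected in every library. Capitals mark matches to the motifs described next. The windows are chr10:128083057-128083356 (plus strand) for Atp5b, chr9:108936398-108936697 (plus strand) for Uqcrc1, chr13:114388045-114388344 (minus strand) for Ndufs4 and chr10:80406772-80407071 (minus strand) for Uqcr11.
Atp5b: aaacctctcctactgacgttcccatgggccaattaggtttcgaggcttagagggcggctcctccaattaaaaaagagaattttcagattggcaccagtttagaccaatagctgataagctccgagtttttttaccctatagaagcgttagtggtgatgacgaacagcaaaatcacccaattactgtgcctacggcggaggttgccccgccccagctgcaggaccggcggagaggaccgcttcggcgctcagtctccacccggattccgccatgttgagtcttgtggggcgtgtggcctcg
Uqcrc1: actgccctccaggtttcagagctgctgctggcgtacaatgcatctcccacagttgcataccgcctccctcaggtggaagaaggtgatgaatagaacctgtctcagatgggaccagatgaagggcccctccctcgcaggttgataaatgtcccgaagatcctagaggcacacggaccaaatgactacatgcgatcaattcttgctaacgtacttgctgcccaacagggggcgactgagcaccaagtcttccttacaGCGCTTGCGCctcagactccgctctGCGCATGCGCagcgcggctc
Ndufs4: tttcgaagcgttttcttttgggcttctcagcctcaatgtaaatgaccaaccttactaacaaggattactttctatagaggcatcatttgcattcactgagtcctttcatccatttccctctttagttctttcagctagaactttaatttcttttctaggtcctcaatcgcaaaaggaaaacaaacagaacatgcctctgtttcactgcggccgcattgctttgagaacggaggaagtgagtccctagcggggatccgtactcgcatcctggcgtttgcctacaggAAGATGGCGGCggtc
Uqcr11: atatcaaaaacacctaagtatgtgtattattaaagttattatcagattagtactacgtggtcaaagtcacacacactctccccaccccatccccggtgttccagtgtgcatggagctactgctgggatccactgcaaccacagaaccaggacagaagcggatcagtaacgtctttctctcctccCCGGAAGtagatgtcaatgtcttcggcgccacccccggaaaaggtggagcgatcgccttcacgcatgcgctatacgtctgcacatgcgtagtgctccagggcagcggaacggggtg

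A promoter window was matched for 69 of the 89 member symbols. The core of the site of NRF1, a factor known to act at respiratory chain genes, was searched on both strands as GCGCA, any base, then GCGC. It was in the windows of 17 of these 69 members, 24.6%, against 5.19% of 27025 genes. The ETS core CCGGAAG, which GABP (NRF2) binds, was in 16 members, 23.2%, against 9.93% of all genes. The AAGGTCA site of the estrogen-related receptors was in 8 members, 11.6%, against 5.38%, and the YY1 motif, AAGATGG followed directly by CGGC, was in 4 members, 5.80%, against 0.755%. Uqcrc1 held the NRF1 core at 2 places, Ndufs4 the YY1 motif and Uqcr11 the ETS core, while none of these letters were in the Atp5b window; matches of different motifs did not overlap in the printed windows. Such matches describe the sequence and are not evidence of binding.

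Of the 90 members, 82 had counts high enough to test among 22107 genes. The 8 left out were an Atp5o identifier, Cox8b, Cox8c, Cox6c2, Ndufa4l2, Ndufa11b, Ndufb4c and Ndufs6b, and 2 of all members had no count in any library. Per kilobase of transcript, averaged over the 12 libraries, Atp5b was the highest at 1008 CPM per kilobase. It was followed by Cox7a2l, a protein of respiratory supercomplexes, at 527, the ATP synthase γ subunit Atp5c1 at 362, Uqcrc1 at 314 and the membrane anchor Sdhd of complex II at 307. In complex I the highest level was that of the accessory subunit Ndufa9, at 113 CPM per kilobase, and the catalytic core subunits Ndufs8 and Ndufv1 had 100.1 and 70.9. The genes were thus far from equal in counts although each complex holds a fixed number of most subunits. Atp5b alone took 18.1% to 28.9% of the members' counts in a library.

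Several small subunits that the complexes are known to contain were near 0. Ndufa1 had 108 counts in all 12 libraries together, Ndufb6 had 70, Atp5k had 159 and Atp5o had 105. Of the 50-base stretches of Ndufb6 and Atp5o, 31.6% and 41.6% occur in another annotated gene as well, and their exons overlap other genes, so their counts are uncertain. Ndufa1 shares none, at 0%, and its low count has no such feature beside it. Shared stretches also made up 38.3% of Atp5g2 and 26.1% of Cycs. Across the 88 members with any count, the level per kilobase was higher in longer transcripts (Spearman's rho 0.36, a description over genes of the same libraries).

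**Figure D1:**
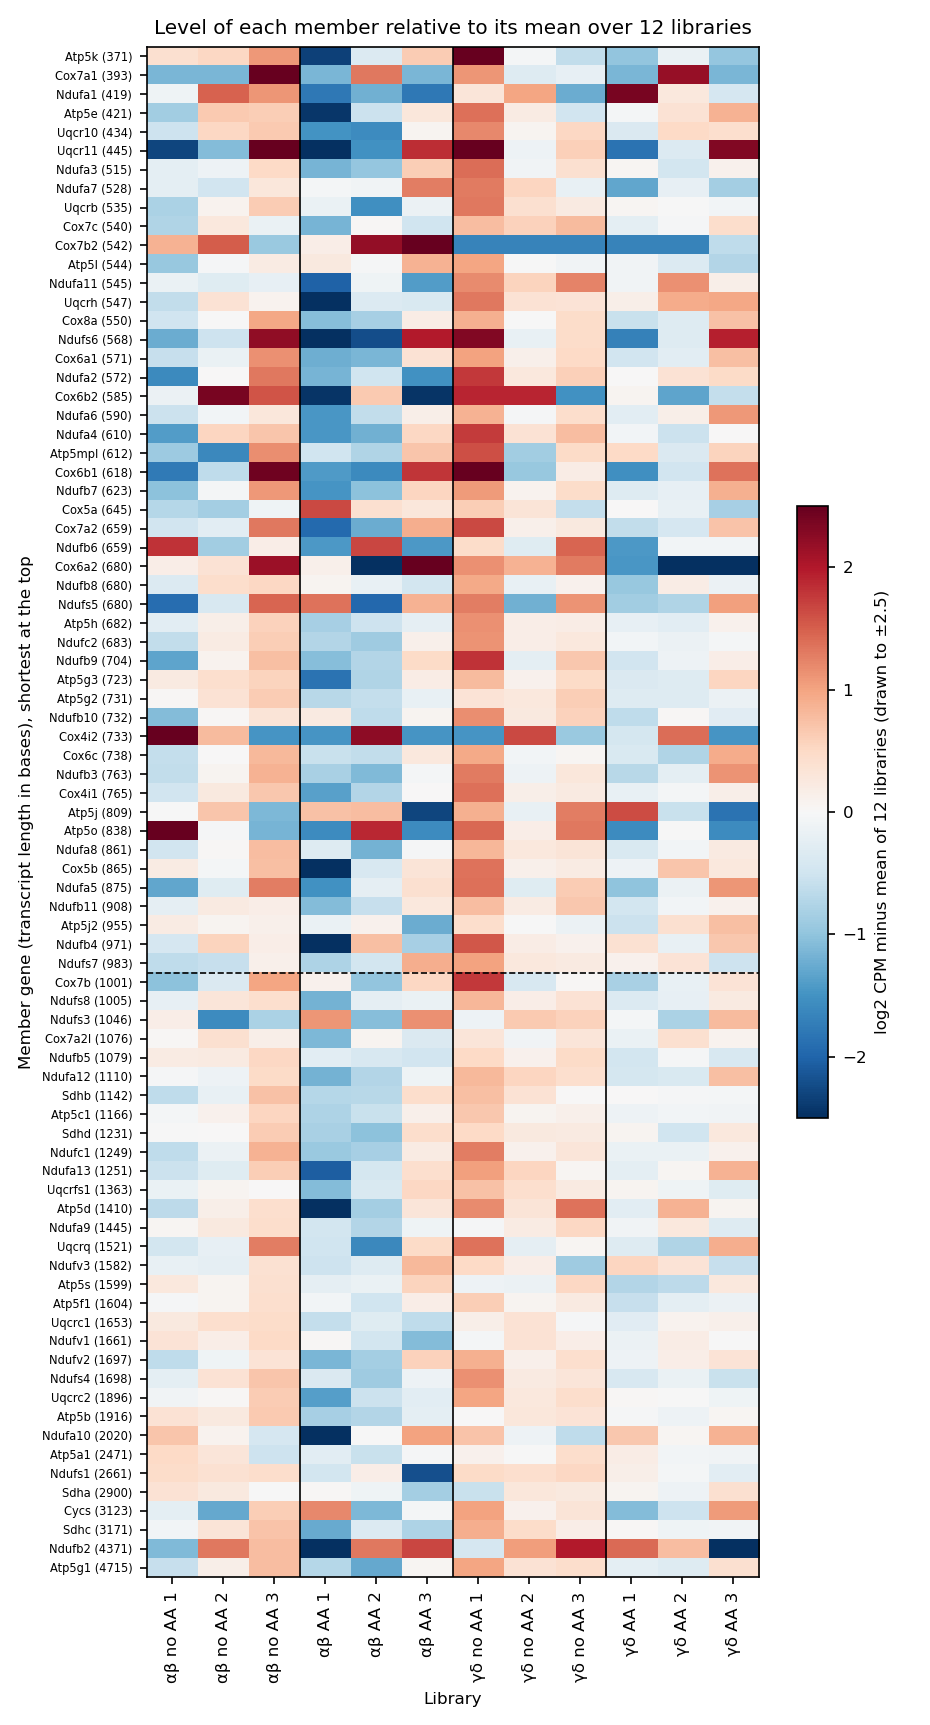
The level of 81 of the 82 tested members in each of the 12 libraries, as log2 CPM minus the member's mean over the 12 libraries, with members ordered from the shortest transcript at the top to the longest. The dashed line marks 1000 bases; the short members above it are mostly high (red) in γδ without AA replicate 1 and αβ without AA replicate 3 and low (blue) in αβ with AA replicate 1.

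The isoforms known from muscle, brown fat, lung or testis were nearly silent, while their widespread counterparts were expressed. Cox4i1 averaged 81.7 CPM and its lung and hypoxia isoform Cox4i2 0.427 CPM. Cox6a1 averaged 109 CPM against 1.01 for the heart and muscle form Cox6a2, Cox7a2 53.3 CPM against 0.292 for the muscle form Cox7a1, and Cox8a 84.4 CPM against 0.419 for the muscle form Cox8b. Cox6b1, the ubiquitous form, averaged only 9.18 CPM and its testis form Cox6b2 0.899 CPM. Some rare isoforms came mostly from 1 library: Cox8b had 54 of its 56 counts in αβ with AA replicate 1, Cox8c 26 of its 29 counts in αβ with AA replicate 2, and Ndufa4l2, the hypoxia-induced relative of Ndufa4, 84 of its 107 counts in γδ with AA replicate 3. Others had a smaller part of their counts in any 1 library, at most 39 of 110 for Cox4i2, 70 of 199 for Cox6a2, 57 of 231 for Cox6b2 and 42 of 85 for Cox7a1. Cox7a1 had a further 23 counts in γδ with AA replicate 2, so it too came mostly from few libraries. The 3 genes for the same c subunit of the ATP synthase ring were all expressed, Atp5g2 at 113 CPM, Atp5g3 at 112 and Atp5g1 at 74.0.

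Cox7b2, the testis form of Cox7b, had few counts, and most were in αβ libraries. It had 11, 17 and 2 counts in the αβ libraries without AA and 3, 27 and 66 with AA, against 0, 0 and 0 in γδ without AA and 0, 0 and 2 with AA. Every αβ library was thus above every γδ library without AA, and with AA the groups did not overlap either. In these comparisons 5.19% and 11.3% of all tested genes were lower in every γδ library. Across the conditions the populations overlapped: αβ without AA replicate 3 was at 0.0713 CPM and γδ with AA replicate 3 at 0.111 CPM. Without AA, its 30 αβ counts were 8.79-fold above a chosen floor of 3 counts over the γδ group, in CPM of all counts. This fold pools the αβ libraries, of which replicate 3 had only 2 counts, and it is no bound for a single library. The difference was not called by edgeR's quasi-likelihood test (Benjamini-Hochberg adjusted) (p 1 without AA and 0.235 with AA), and DESeq2 called it with AA, at an adjusted p of 0.0250. With AA, DESeq2 called 8.25% of all genes and edgeR 0.0226%, so a DESeq2 call was not rare there. The library labelled αβ replicate 3 without AA, whose Trdc was high, had the lowest count of the αβ libraries. That labelled γδ replicate 3 without AA, whose Trdc was low, had 0 counts, like the other γδ libraries without AA.

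With AA in αβ cells, 69 of the 82 tested members had a lower fitted mean and 13 a higher one. The members' median log2 fold change was -0.60, against 0.12 over all 22107 genes, of which 46.7% were lower. Among tested genes of at least 8 CPM, 70.8% were lower, with a median of -0.37. For those of them under 1000 bases, 81.9% were lower, with a median of -0.57. None of the members passed the threshold of an adjusted p under 0.05 in edgeR's quasi-likelihood test (Benjamini-Hochberg adjusted), where 0.0136% of all tested genes did. At an unadjusted p under 0.05, 11 members were lower, where 6.01% of all genes were, and 0 higher, where 4.23% were, or 10.2% of genes in either direction. The largest median shift of a complex was that of complex III, with all 8 genes lower and a median of -0.88. Among these, Uqcr10, Uqcr11 and Uqcrh averaged only 6.73, 5.68 and 4.09 CPM, and their log2 fold changes had SEs of 0.99, 1.72 and 1.24. The medians were -0.51 in complex I, where 28 of 35 were lower, -0.51 in complex II, where 4 of 4 were lower, -0.63 in complex IV, where 14 of 17 were lower, and -0.70 in complex V, where 15 of 17 were lower. DESeq2 called 0 members, where it called 1.66% of all genes, and limma's voom 1, Atp5b, where it called 0.276%. The split depends on scaling: with DESeq2's size factors 56 members were lower and 26 higher, with a median of -0.19, as the median of all genes moved to 0.50. The members' median was -0.26 without αβ without AA replicate 3, whose Trdc went against its label, and -0.36 without both such libraries. T cell marker sums were 325 to 1109 CPM with AA against 2137 to 3042 CPM without, and their part in these values was not tested.

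Atp5b (ENSMUSG00000025393.12), the catalytic β subunit, had the smallest p of any member. It was at 2371, 2195 and 2925 CPM without AA and at 1049, 1120 and 1574 CPM with AA. Every library with AA was below every library without it. The log2 fold change was -1.001 ± 0.22 (SE), with an adjusted p of 0.216 in edgeR's quasi-likelihood test (Benjamini-Hochberg adjusted). Limma's voom with quality weights called it, at an adjusted p of 0.0399, and so did edgeR with no filter on low counts, at 0.000216. These settings called 0.276% and 0.597% of all genes. The log2 fold change was -0.49 with an offset for transcript length, described further on.

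Uqcrc1 (ENSMUSG00000025651.14), the core protein of complex III, was at 597, 671 and 697 CPM without AA and at 331, 408 and 322 CPM with it. The groups did not overlap, and the log2 fold change was -0.89 ± 0.23 (SE; edgeR's quasi-likelihood test, Benjamini-Hochberg adjusted p 0.270). Sdhc (ENSMUSG00000058076.12), a membrane anchor of complex II, was at 73.0, 95.1 and 125 CPM without AA and 31.6, 60.4 and 44.5 CPM with it. It too was lower in every library with AA, by a log2 fold change of -1.10 ± 0.35 (SE; adjusted p 0.406 in edgeR's quasi-likelihood test (Benjamini-Hochberg adjusted)). These 3 genes, of different complexes, are the members with the smallest p-values among those lower with AA.

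In 12 members every αβ library with AA was below every one without, where 10.9% of all tested genes did this, and Cox5a alone was above, where 8.27% of genes were. Besides Atp5b, Uqcrc1 and Sdhc, the lower ones included the complex I core subunits Ndufs1 and Ndufv1, its accessory subunit Ndufa9, the second core protein Uqcrc2 of complex III, and Atp5g2 and Atp5g3 of the c ring. The count was 4 with DESeq2's size factors, where 5.41% of genes did this, and 2 members were then higher, where 11.1% of genes were. Ndufs1, the largest subunit of complex I, was at 152, 145 and 150 CPM without AA and at 80.4, 124 and 24.0 CPM with it, and the libraries with AA, all lower, spread widely. Its log2 fold change was -0.97 ± 0.43 (SE).

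Some members, core subunits among them, did not share the lower values. Ndufs3, a core subunit of complex I, was at 34.6, 10.3 and 17.9 CPM without AA and 66.6, 14.8 and 68.3 CPM with it. Cox5a, a structural subunit of complex IV, was at 5.70, 5.15 and 8.73 CPM without AA and 29.8, 12.4 and 11.4 CPM with it. Ndufs3 overlapped between the groups and Cox5a did not; the log2 fold changes were 1.25 ± 0.65 and 1.45 ± 0.79 (SE; adjusted p 0.529 and 0.557, edgeR's quasi-likelihood test (Benjamini-Hochberg adjusted)). Other core subunits were closer to 0: Ndufs7 had 0.39 ± 0.52 and Ndufv2 -0.19 ± 0.49 as log2 fold changes. Cycs, cytochrome c itself, was at 11.6, 5.65 and 21.1 CPM without AA and 32.1, 6.26 and 13.4 CPM with it, with overlapping groups.

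**Figure D2:**
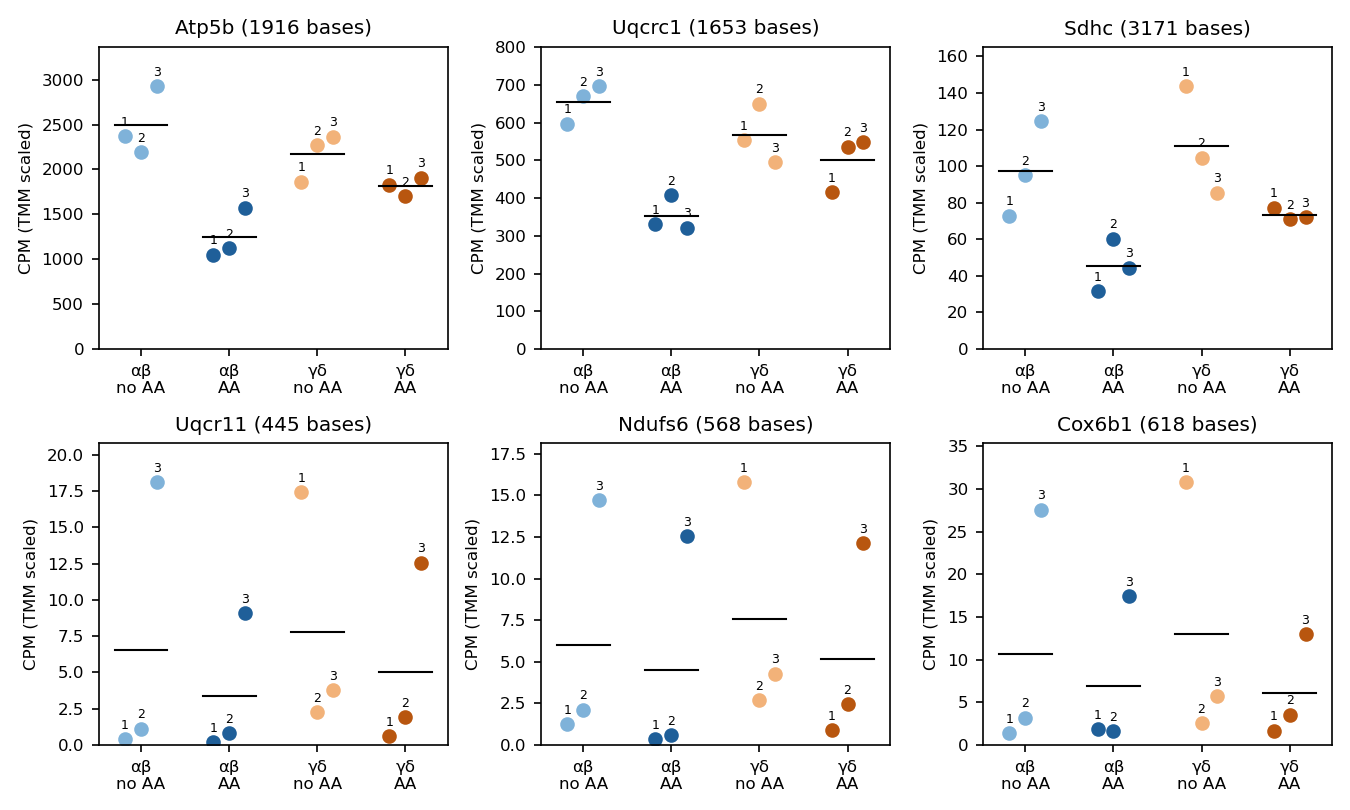
Levels of 6 members in each library, in CPM scaled by TMM, with the transcript length in the title; digits are replicate numbers and lines are means of 3 libraries. Atp5b, Uqcrc1 and Sdhc in the upper row are lower in all αβ libraries with AA, while Uqcr11, Ndufs6 and Cox6b1 in the lower row are set by 1 library of each group.

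With AA in γδ cells, 74 of 82 members had a lower fitted mean and 8 a higher one. The members' median log2 fold change was -0.52, against -0.06 over all genes, of which 52.7% were lower. Among tested genes of at least 8 CPM, 54.6% were lower, with a median of -0.06. For those of them under 1000 bases, 78.8% were lower, with a median of -0.47. No member passed the threshold in edgeR's quasi-likelihood test (Benjamini-Hochberg adjusted), where 0.00905% of all genes did. At an unadjusted p under 0.05, 3 members were lower, where 3.85% of all genes were, and 0 higher, where 3.38% were, or 7.24% in either direction. The complexes were alike, with medians of -0.53 in complex I, -0.39 in complex II, -0.51 in complex III, where all 8 were lower, -0.49 in complex IV and -0.47 in complex V. With DESeq2's size factors, 71 members were lower, and DESeq2 and voom called 0, where they called 1.26% and 0.095% of all genes. The members' median was -0.24 without γδ without AA replicate 1, in which most members were high, and -0.61 without both libraries whose Trdc went against the label. Summed dendritic cell markers, 5 of 5 detected, were 34.3, 24.7 and 29.5 CPM without AA and 128, 90.3 and 110.2 CPM with it, groups that did not overlap, and their part in these values was not tested.

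Of all members, 21 were lower in every γδ library with AA than in every one without, where 7.08% of all genes were, and 0 were higher, where 4.86% were. They came from all 5 complexes: 8 of complex I (Ndufa7, Ndufa8, Ndufb10, Ndufb11, Ndufb5, Ndufc2, Ndufs1 and Ndufs4), Sdhb and Sdhc of complex II, Uqcrb, Uqcrc2 and Uqcrfs1 of complex III, Cox6a2, Cox7c and Ndufa4 of complex IV, and Atp5c1, Atp5f1, Atp5g2, Atp5h and Atp5o of complex V. Atp5o and Cox6a2 had few counts. The groups of 3 are too small for a single gene to reach a p under 0.10 by an exact permutation test, and none of the 21 passed edgeR's threshold.

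Ndufs4 (ENSMUSG00000021764.8), needed for a stable complex I, had the smallest p. It was at 140, 74.0 and 78.4 CPM without AA and 48.1, 56.7 and 43.0 CPM with it, so the groups did not overlap. The log2 fold change was -0.98 ± 0.39 (SE), with an adjusted p of 0.635 in edgeR's quasi-likelihood test (Benjamini-Hochberg adjusted), and it was -0.62 without γδ without AA replicate 1. Atp5f1, the peripheral stalk subunit b of ATP synthase, was at 486, 330 and 367 CPM without AA and 211, 268 and 284 CPM with it. Its log2 fold change was -0.63 ± 0.27, and that of Atp5g2 was -0.67 ± 0.29 (SE; both with an adjusted p of 0.635 in edgeR's quasi-likelihood test (Benjamini-Hochberg adjusted)). Both were lower in every γδ library with AA. The catalytic Atp5b was at 1863, 2273 and 2365 CPM without AA and 1829, 1701 and 1908 CPM with it, groups that overlap, with a log2 fold change of -0.26 ± 0.22.

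Members with a lower fitted mean with AA in αβ cells had varied values in γδ cells. Sdhc, Ndufs1 and Uqcrc2, at -1.10, -0.97 and -0.89 in αβ cells, had log2 fold changes of -0.60 ± 0.35, -0.53 ± 0.43 and -0.63 ± 0.37 in γδ cells (SE), where each was lower in every library with AA. Uqcrc1 was at 554, 650 and 495 CPM without AA and 416, 537 and 549 CPM with it (log2 fold change -0.18 ± 0.22, SE). Ndufv1, at -0.77 in αβ cells, had -0.16 ± 0.31, and Sdha, the flavoprotein of complex II at -0.48 in αβ cells, had 0.10 ± 0.29. The difference of the AA effects, γδ minus αβ, was tested in the same model. It was 0.74 ± 0.31 for Atp5b and 0.71 ± 0.32 for Uqcrc1 on the log2 scale (SE; adjusted p 0.493 and 0.501, edgeR's quasi-likelihood test (Benjamini-Hochberg adjusted)). No member passed, nor did any gene (0% of all tested), and at an unadjusted p under 0.05 only Atp5b and Uqcrc1 did, both higher, where 3.86% of all genes were; 0 were lower, where 5.71% were, or 9.58% in either direction. The members' median of this difference was 0.07, against -0.08 over all genes, and it changed sign with scaling: 36 members were below 0 and 46 above, but 59 and 23 with DESeq2's size factors, where the median was -0.25.

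Between the populations without AA, 65 of 82 members had a higher fitted mean in γδ than in αβ cells. The median log2 fold change was -0.07 over all genes, -0.01 over genes of at least 8 CPM and 0.30 over those of them under 1000 bases. It was 0.33 over the members. None passed in edgeR's quasi-likelihood test (Benjamini-Hochberg adjusted), nor did any other gene (0%). At an unadjusted p under 0.05, only Cox7b2 was lower, where 2.44% of genes were, and 0 members were higher, where 0.855% were, or 3.3% in either direction. Higher in every γδ library were 4 members, Ndufa11, Ndufs7, Uqcrfs1 and Cox7c, where 3.14% of all genes were, and lower was Cox7b2 alone, where 5.19% were. The count of higher members was 7 with DESeq2's size factors, where 3.56% of genes were higher, and 9 with library size alone, where 3.94% were. Ndufs7, which carries the last iron-sulfur cluster of complex I, was at 22.5, 23.4 and 38.2 CPM in αβ and 69.8, 41.9 and 40.7 CPM in γδ cells. Its log2 fold change was 0.86 ± 0.52 (SE). Without both libraries whose Trdc went against the label, the members' median was 0.73 and 65 of 83 were higher. It was 0.02 without γδ without AA replicate 1, the library in which most members were high.

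With AA, 62 of 82 members were higher in γδ cells, with a median of 0.37, against -0.19 over all genes and 0.30 over genes of at least 8 CPM. None passed in edgeR's quasi-likelihood test (Benjamini-Hochberg adjusted), where 0.0226% of all genes did. At an unadjusted p under 0.05, Atp5b and Uqcrc1 were higher, where 6.19% of all genes were, and Cox7b2 lower, where 12.3% were, or 18.5% in either direction. Higher in every γδ library were 10 members, where 9.1% of genes were, among them Atp5b, Uqcrc1, Uqcrc2 and Sdhc; lower were 4, where 11.3% were: Ndufa7, Cox5a, Cox7b2 and Atp5l. Atp5b differed by 0.54 ± 0.22 and Uqcrc1 by 0.50 ± 0.22 on the log2 scale (SE; adjusted p 0.235 and 0.258, edgeR's quasi-likelihood test (Benjamini-Hochberg adjusted)). With DESeq2's size factors 45 members were higher and 37 lower, and 4 were higher in every γδ library, where 5.24% of genes were.

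Transcript length went with the spread between libraries. Among the tested members, 49 of 82 had a transcript under 1000 bases. The ratio of the highest to the lowest library was larger in shorter members (Spearman's rho -0.46 over 72 members detected in every library, a description). Uqcr11 (ENSMUSG00000020163.12; 445 bases) was at 0.417, 1.11 and 18.1 CPM in αβ without AA, 0.182, 0.796 and 9.08 with AA, 17.4, 2.25 and 3.76 in γδ without AA, and 0.607, 1.91 and 12.6 with AA. Each group thus held 1 high library, and the highest was 99.4-fold above the lowest. The same libraries were high for Ndufs6, an accessory subunit of complex I of 568 bases, with a 43.3-fold range, and for Cox6b1 of 618 bases, with a 22.1-fold range. The longer Atp5b, Uqcrc1 and Atp5a1, the α subunit of ATP synthase, ranged over 2.79-fold, 2.16-fold and 2.08-fold.

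Other short genes moved with the short members. In members of at least 8 CPM under 1000 bases, the median log2 deviation from the mean of 12 libraries was -0.57, 0.01 and 0.63 in αβ without AA and -1.06, -0.64 and 0.27 with AA. It was 1.13, 0.13 and 0.28 in γδ without AA and -0.32, -0.18 and 0.17 with AA. The 524 tested genes of the same length and level, members included, had -0.27, 0.13 and 0.56, then -0.83, -0.59 and 0.06, then 0.84, 0.15 and 0.35, then -0.18, -0.04 and 0.34. The order of the libraries was thus nearly that of the members. The libraries with the highest macrophage sums, γδ without AA replicate 1 at 39514 CPM and αβ without AA replicate 3 at 25651 CPM, were also those with the highest short members; the part of this in the result was not tested.

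**Figure D3:**
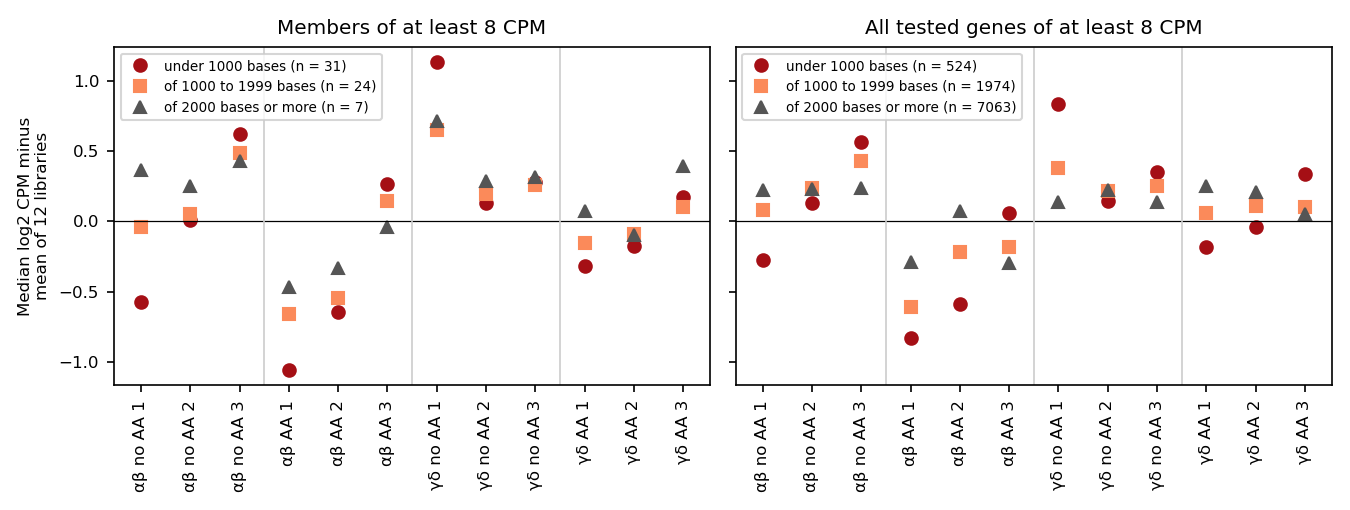
Median log2 CPM relative to the mean of 12 libraries, for members (left) and all tested genes (right) of at least 8 CPM in 3 classes of transcript length, with one point per library and class. Genes under 1000 bases (circles) spread the most between libraries in both panels, from -1.06 to 1.13 in members and from -0.83 to 0.84 in all tested genes.

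Set beside genes of the same length and level, the members' medians with AA were lower in each class in αβ and in γδ cells. In αβ cells they were close under 1000 bases, at -0.59 for members and -0.57 for genes. They were -0.60 and -0.53 from 1000 to under 2000 bases, and -0.48 and -0.30 from 2000 bases, where only 7 members lie. In γδ cells the medians of members and genes were -0.55 and -0.47, -0.41 and -0.22, and -0.41 and 0.00. The differences between members and genes were not tested in either population. Without AA, γδ against αβ, the medians were 0.42 and 0.30, 0.14 and 0.04, and 0.05 and -0.05. With AA, γδ against αβ, they were 0.36 and 0.40, 0.37 and 0.38, and 0.49 and 0.27, so members under 2000 bases were near genes of their length. With an offset for transcript length in the model, an alternative chosen after seeing the data, the members' median was -0.06 with AA in αβ cells, with 44 lower and 38 higher, and -0.14 in γδ cells, with 59 lower and 23 higher. The medians of all genes were then 0.52 and 0.00, and those of genes of at least 8 CPM 0.04 and -0.02.

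As a share of all counts, the members took 0.818%, 0.812% and 0.980% in αβ without AA and 0.604%, 0.589% and 0.646% with AA. They took 0.937%, 0.880% and 0.916% in γδ without AA and 0.697%, 0.747% and 0.798% with AA. Both groups with AA lay below both without it. The repeat genes Gm10800 and Gm21738 took 23.1% of αβ with AA replicate 3; with these and the mitochondrial genes left out of the total, its members' share was 0.869%, above the 0.836% of the lowest library without AA, so the αβ groups then overlapped. By complex, the mean share was lower with AA in complexes I to V and, for cytochrome c, higher in αβ cells: complex V went from 0.419% ± 0.0363 to 0.275% ± 0.0267 in αβ and from 0.414% ± 0.0225 to 0.334% ± 0.00694 in γδ cells, and complex I from 0.147% ± 0.0254 to 0.116% ± 0.00573 and from 0.175% ± 0.0191 to 0.136% ± 0.0122 (SD, n = 3 each).

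The mitochondrially encoded subunits went the other way in αβ cells. All 10 tested had a higher fitted mean with AA, with a median log2 fold change of 0.43, and none passed in edgeR's quasi-likelihood test (Benjamini-Hochberg adjusted); their counts were 1.71, 1.80 and 0.723 times those of the members without AA and 3.98, 3.34 and 2.39 times with AA. The ratio did not overlap between these groups. In γδ cells it was 1.59, 1.28 and 1.99 without AA and 1.64, 1.92 and 1.45 with it, and 8 of the 10 genes were lower with AA, with a median of -0.24. mt-Nd5, a proton-pumping subunit of complex I, was at 559, 487 and 320 CPM in αβ without AA and 1243, 938 and 678 CPM with AA (log2 fold change 1.07 ± 0.30, SE; adjusted p 0.330 in edgeR's quasi-likelihood test (Benjamini-Hochberg adjusted)). The summed T cell markers were also lower in those αβ libraries with AA, at 325 to 1109 CPM against 2137 to 3042, and their part in this was not tested. The library labelled αβ replicate 3 without AA had the lowest ratio of all 12; the other two αβ libraries without AA, at 1.71 and 1.80, were also below all those with AA.

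**Figure D4:**
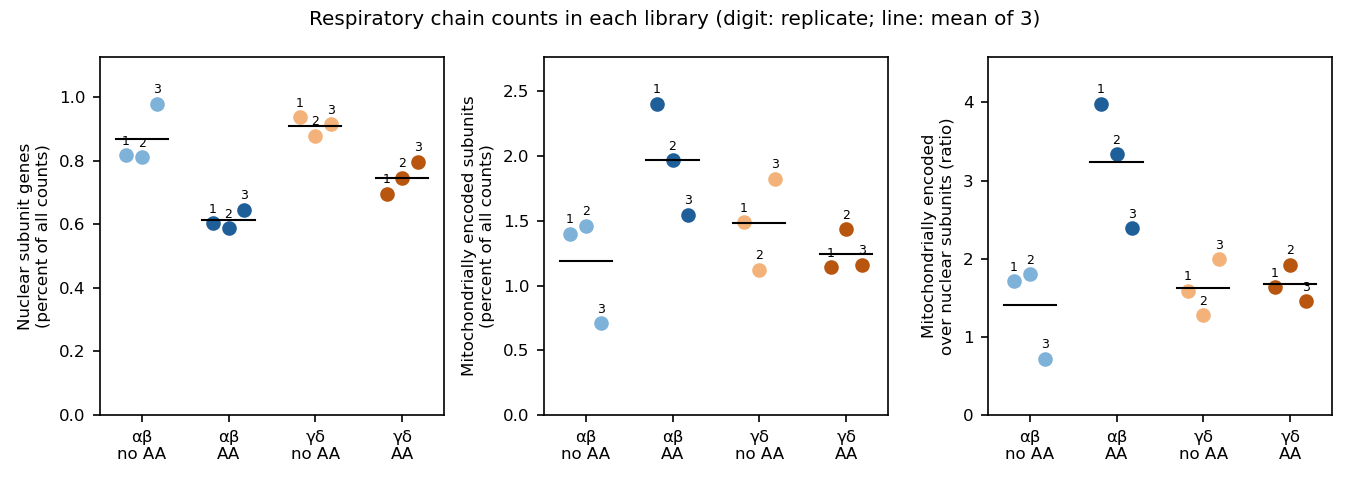
Percent of all counts taken by the nuclear members (left) and by the mitochondrially encoded subunits (middle), and the ratio of the second to the first (right), with one point per library, its replicate number and a line at the mean of 3. The members' share is lower in both groups with AA, and the ratio is 2.39 or more only in the 3 αβ libraries with AA, with the other libraries at 1.99 or less.

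The genes around the chain were read from lists. The 14 tested enzymes of the tricarboxylic acid cycle, which supply its electrons, were lower with AA in αβ cells in 13 cases, with a median log2 fold change of -0.67, and in γδ cells in 12, with -0.40. Mdh2, the mitochondrial malate dehydrogenase, had -1.01 ± 0.27 in αβ cells (SE). Of the carriers and dehydrogenases that feed the chain, 12 of 14 were lower in αβ cells (median -0.55) and 9 of 14 in γδ cells (median -0.29). The ADP/ATP carrier Slc25a5 had -1.06 ± 0.37 and -0.85 ± 0.36. Assembly factors of complex I were lower in 12 of 15 and 11 of 15 cases, with medians of -0.40 and -0.33, and those of complexes II to V in 26 of 33 and 22 of 33, with medians of -0.49 and -0.24. Subunits outside the naming rule, such as Ndufab1 and Cyc1, were lower in 5 of 7 and 6 of 7. In αβ cells 6 cycle enzymes and 6 carriers and dehydrogenases were lower at an unadjusted p under 0.05, where 6.01% of all genes were, and in γδ cells 1 of each, where 3.85% were. Genes of at least 8 CPM had medians of -0.37 in αβ and -0.06 in γδ cells. No gene of these lists passed edgeR's quasi-likelihood test (Benjamini-Hochberg adjusted) in any comparison.

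Of the 14 regulators of mitochondrial gene expression, 11 were lower with AA in αβ cells and 10 in γδ cells, with medians of -0.54 and -0.57. Myc, a factor that drives growth and mitochondrial genes in activated T cells, was at 307, 248 and 405 CPM in αβ without AA and 138, 92.6 and 149 CPM with it, and at 210, 383 and 305 CPM in γδ without AA and 163, 158 and 90.3 CPM with it. Both pairs of groups were apart, with log2 fold changes of -1.34 ± 0.33 and -1.13 ± 0.33 (SE; adjusted p 0.269 and 0.635 in edgeR's quasi-likelihood test (Benjamini-Hochberg adjusted)). Nrf1, whose core motif was in 17 member windows, had -0.72 ± 0.50 and -0.69 ± 0.50, and Tfam, which packages and transcribes mitochondrial DNA, -0.57 ± 0.32 and -0.36 ± 0.31. The coactivator Ppargc1a went against the list, with higher fitted means in both populations. It was at 1.31, 1.84 and 2.22 CPM in γδ without AA and 12.3, 3.28 and 18.8 CPM with it, and these groups did not overlap (log2 fold change 2.68 ± 1.51, SE; Benjamini-Hochberg adjusted p 0.641 in edgeR's quasi-likelihood test).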

How the data were processed

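The deposited table held raw counts per gene for 12 libraries, counted by the authors; their sums are the depths given above. Per the submitters' processing notes Bowtie 0.12.2 and the build mm8 were used. The sources used here do not name the counting program, its annotation or its use of strand; 98.1% of the identifiers match GENCODE M21 with their version, an annotation of GRCm38, so the build behind the counts is not settled, and overlapping genes cannot be separated. Symbols and transcript lengths came from GENCODE M21, with 55141 of 55401 genes named. Lengths are those of the principal transcript, the longest where several ranked alike, or of the longest transcript where a gene had none. Atp5g1, at 4715 bases by this choice, is among the 7 members of at least 8 CPM and 2000 bases.

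The members, the gene lists and the tests were chosen with earlier results of these data known. Libraries were grouped by their labels. Genes were filtered with filterByExpr (minimum count 10), scaled by TMM and tested by edgeR 4.0.16 (glmQLFit, then glmQLFTest, under R 4.3.3) with one mean per group over all 12 libraries, 8 residual degrees of freedom and Benjamini-Hochberg adjustment, called at 0.05; the common biological coefficient of variation was 1.21. The model was tested on simulated data. CPM are TMM scaled unless said otherwise. Replicates differed by more than sampling noise (chi-square per degree of freedom 54.7 to 309), which cannot show whether they were separate animals or cultures. Each library was counted as a sample. Named, apart from a gene that is not reported here, were the core subunits, the isoform pairs, the highest member of each complex and, per comparison, the 3 members with the smallest p in each direction. Alternatives were DESeq2 1.42.0, voom of limma 3.58.1, other scalings and filters, a replicate block, each library left out, and an offset for transcript length.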

Additional observations from a re-analysis of the deposited data

How the results depend on the processing

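No member was called in any comparison with any library left out, nor with other size factors, a stricter filter or the length offset. At most 0.614% of all genes were called in those settings. In αβ cells with AA, 1 member was called with no filter on low counts (Atp5b, 1 of 88, against 0.597% of all genes). Limma's voom also called 1 there (Atp5b, 1 of 82, against 0.276%). In γδ against αβ with AA, DESeq2 and voom each called 1 (Cox7b2), where they called 8.25% and 3.22% of all genes. With each library left out in turn, or both libraries whose Trdc went against the label, the members' median log2 fold change ran from -0.69 to -0.26 with AA in αβ cells, from -0.73 to -0.24 in γδ cells, from -0.31 to 0.30 for the difference of the effects, from 0.02 to 0.73 for γδ against αβ without AA and from 0.14 to 0.47 with AA. With the offset for transcript length, chosen after seeing the data, it was -0.056 with AA in αβ cells and -0.012 for γδ against αβ with AA; the offset removes what goes with length by its construction. The number of members without overlap was 4 lower (5.41% of all genes) and 2 higher (11.1%) with AA in αβ cells with DESeq2's size factors, and 2 higher (9.42%) with library size alone. It was 7 higher (3.56%) in γδ against αβ without AA with size factors, 9 (3.94%) with library size, and 4 higher (5.24%) with AA with size factors; the cause was not tested. With a total that leaves out repeat and mitochondrial genes, the members' mean share was 0.891% ± 0.0879 in αβ without AA and 0.708% ± 0.139 with AA. In γδ cells it was 0.940% ± 0.0418 without AA and 0.766% ± 0.0565 with AA (SD, n = 3 each). With single libraries left out, Ndufa1 ran from -0.38 (without γδ with AA replicate 1) to 1.85 and Cox7b2 from 0.00 (without γδ with AA replicate 3) to 3.22 on the log2 scale with AA in γδ cells. Same-numbered libraries correlated at -0.182 to 0.137 in their deviations, so no pairing by number was seen. The -0.182 was that of both libraries labelled replicate 3 without AA, whose Trdc went against the label. Deviations were taken from group means under the labels, so these values cannot settle whether the numbers pair the libraries. With a replicate block 0 members were called, where 0% of all genes were. The members' medians with this block were -0.64, -0.61, 0.05, 0.49 and 0.42 in the order above. Depth limits most the αβ libraries with AA, and members near 0 counts.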

Other observations

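Ucp2, an inner membrane carrier, was at 899, 1084 and 1074 CPM in αβ without AA and 597, 827 and 753 CPM with AA, a log2 fold change of -0.49 ± 0.21 (SE). Of the mitochondrially encoded subunits, mt-Co2 and mt-Co3 were at most 5.20 and 3.08 CPM in a library, while mt-Co1 was at least 3372 CPM, so the mitochondrial shares given above rest on mt-Co1, mt-Cytb and the mt-Nd genes.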
